A study of Mus musculus with 6 samples.

Results

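Transcripts of fibroblast growth factor (FGF) signalling and of its feedback on the MAP kinase (MAPK) cascade were compared between mice with and without Sfrp1, the gene of a secreted Wnt antagonist, in cancer stem cells from their squamous cell carcinomas of the skin. The genes were listed by name, 41 in all, as ligands, receptors, kinases, Sprouty and Spred inhibitors, MAPK phosphatases, ETS transcription factors and other feedback or induced genes. Of these, 39 had an array feature that carried their symbol alone and are described below, out of 30142 genes compared. Etv1 and Mapk3 were not analysed here. Both groups, WT and Sfrp1_KO (Sfrp1-/-), were mice given the mutagen DMBA on 3 days, at PD 23, 25 and 27 in the notation of the labels, and then the tumour promoter TPA, 2 doses weekly over 30 to 40 weeks. The sort took carcinoma cells that carried Epcam, α6 integrin and CD34 and lacked lineage markers. Each of the 6 samples, 3 per genotype, was read on its own Affymetrix MTA 1.0 array. Strain, sex, the deleted part of Sfrp1 and whether tumours were pooled are not given in the labels, nor whether each sample came from its own animal. The p-values therefore reflect only how these samples spread, and part of that spread may be technical.

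FGFs are secreted proteins that bind receptor tyrosine kinases. In skin, FGF7 and FGF10 from dermal cells act on a splice form of FGFR2 in keratinocytes, whereas FGFR1 is the receptor commonly found on mesenchymal cells. Bound receptors switch on Ras, which drives a cascade of RAF, MEK and ERK kinases. ERK activity in turn induces its own brakes: Sprouty and Spred proteins act upstream near Ras, and dual-specificity phosphatases (DUSPs) remove phosphate from ERK and related kinases. The ETS factors ETV4 and ETV5, which are not such brakes, are also transcribed in response to FGF. The array has 1 feature per gene here, so splice forms of a receptor were not resolved, and the phosphorylation of ERK was not measured.

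Values are deposited log2 signals, and a difference is Sfrp1_KO minus WT in the same log2 units with its moderated standard error (SE). The deposited values reach 19.93, above the 16 bits of a scanner, so an unnamed step stretched or shifted the scale, and no folds are given. A gene was called at a limma p under 0.05 after Benjamini-Hochberg adjustment over all 30142 genes. Background was taken per array as the brightest of 23 antigenomic probe sets, between 4.82 and 5.10, and array medians lay between 4.32 and 4.46. If 1 genotype had no array over background, its change is given as "at least" the distance from that genotype's average background to the average signal in the opposite genotype. Sfrp1 stood at 5.71, 5.48 and 6.07 in WT and at 5.09, 5.11 and 5.15 in Sfrp1_KO, where 2 of 3 arrays were above background (difference -0.64, SE 0.15, adjusted p = 0.0969; two-sided exact permutation p = 0.1, which is the lowest p this design can reach).

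The sort markers and cell type markers differed between the same arrays. Epcam was called lower in Sfrp1_KO (7.59 ± 1.03 in WT and 5.03 ± 0.17 in Sfrp1_KO, SD, n = 3; adjusted p = 0.0455), and only 1 of the 3 Sfrp1_KO arrays was above background for it although the gate took Epcam-positive cells. Itga6, which encodes α6 integrin, was called lower (9.51 ± 0.64 and 7.62 ± 0.18, adjusted p = 0.0292). Cd34 had the opposite sign without overlap and was not called (9.42 ± 0.15 and 10.99 ± 0.71, adjusted p = 0.0714). Of 8 basal keratinocyte markers 6 were called lower, where 1.45% of all genes were. The mean level of the 8 ran from 9.78 to 10.51 over the WT arrays and from 5.98 to 6.14 over the Sfrp1_KO arrays. Of 8 suprabasal markers 2 were called lower, with mean levels of 6.31 to 7.38 and 4.73 to 4.79. Without overlap, 7 of these 8 were lower in Sfrp1_KO, as were 10.8% of all genes. Both measured wound keratinocyte markers were called lower, Krt16 by at least 7.96 and Krt17 by at least 4.97, with all Sfrp1_KO arrays under background. Of 7 fibroblast markers 2 were called higher, Pdgfrb and Thy1, where 1.83% of all genes were. The mean level of the 7 was 5.47 to 6.77 in WT and 6.76 to 7.53 in Sfrp1_KO, so that the genotypes overlapped. Of the other 5 fibroblast markers, Col3a1, Col1a2 and Dcn had positive differences and Col1a1 (-0.45) and Lum (-0.59) negative ones. WT replicate 3 reached 10.56 for the fibroblast gene Dcn, within the Sfrp1_KO range of 10.11 to 11.15. None of 8 leukocyte and macrophage markers was called, and their mean level was 4.50 to 4.67 in WT and 4.83 to 5.56 in Sfrp1_KO. For 5 of them, Lyz2, C1qa, C1qb, Csf1r and Laptm5, all Sfrp1_KO arrays were above all WT arrays, as for 9.1% of all genes. Lyz2 had the largest difference (1.98, adjusted p = 0.0941), and Csf1r was under background on all arrays. The other 3, Ptprc, Adgre1 and Cd68, overlapped, and the pan-leukocyte gene Ptprc was under background on all 6 arrays. All 4 T cell markers were under background on all arrays, as were 5 of 6 melanocyte markers. None of 6 pericyte and smooth muscle, 6 endothelial and 3 Schwann markers was called. Pericyte and smooth muscle means were 5.22 to 5.43 in WT and 4.83 to 5.06 in Sfrp1_KO. Endothelial means were 4.32 to 4.88 and 4.52 to 4.83. Schwann means were 4.69 to 4.84 and 4.64 to 4.67. Cdh5, an endothelial gene, stood at 4.22, 4.36 and 5.16 in WT and at 7.15, 6.69 and 4.88 in Sfrp1_KO (adjusted p = 0.264). The other 5 endothelial differences were negative. In bulk RNA of sorted cells, fewer cells of a type and less RNA per cell cannot be told apart. The part of these markers in the differences below was not tested.

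Of the 39 FGF and feedback genes, 7 were called higher and 4 lower in Sfrp1_KO, which is 28.2% of them. Over all genes 3.28% were called, 1.83% higher and 1.45% lower. Of the measured genes, 28 of the 39, and 11010 of all 30142 genes, were above background on at least 3 arrays, and among those 11010 genes 8.25% were called. The higher genes were the receptor Fgfr1, the receptor-like Fgfrl1, the ligand Fgf7, the inhibitors Spry1, Spry4 and Errfi1 and the ETS factor Etv5, and the lower genes were the receptors Fgfr2 and Fgfr3, the phosphatase Dusp7 and the ETS factor Ets2. The arrays of the genotypes did not overlap for 13 genes that were higher and 8 that were lower, 53.8% of the 39, where 19.9% of all genes did so (9.1% higher and 10.8% lower) and 32.6% of the 11010 genes above background on at least 3 arrays. The median difference of the 39 was 0.06, against -0.01 over all genes, and the median size of the difference without its sign was 0.33 against 0.105 over all genes and 0.222 over those 11010. The calls became fewer whichever array was left out, among the 39 and over all genes (552 higher and 437 lower with all arrays). Without Sfrp1_KO replicate 2 they were 2 higher and 1 lower among the 39, and 191 and 100 over all genes. Without Sfrp1_KO replicate 1 they were 3 and 2, and 223 and 125 over all genes. Without WT replicate 1 they were 4 and 4, and 346 and 407 over all genes. Such fits use fewer arrays, so a lost call does not show that the array left out drove a difference. Fgfr1, Errfi1 and Ets2 were called without any 1 of the 6 arrays.

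**Figure D1:**
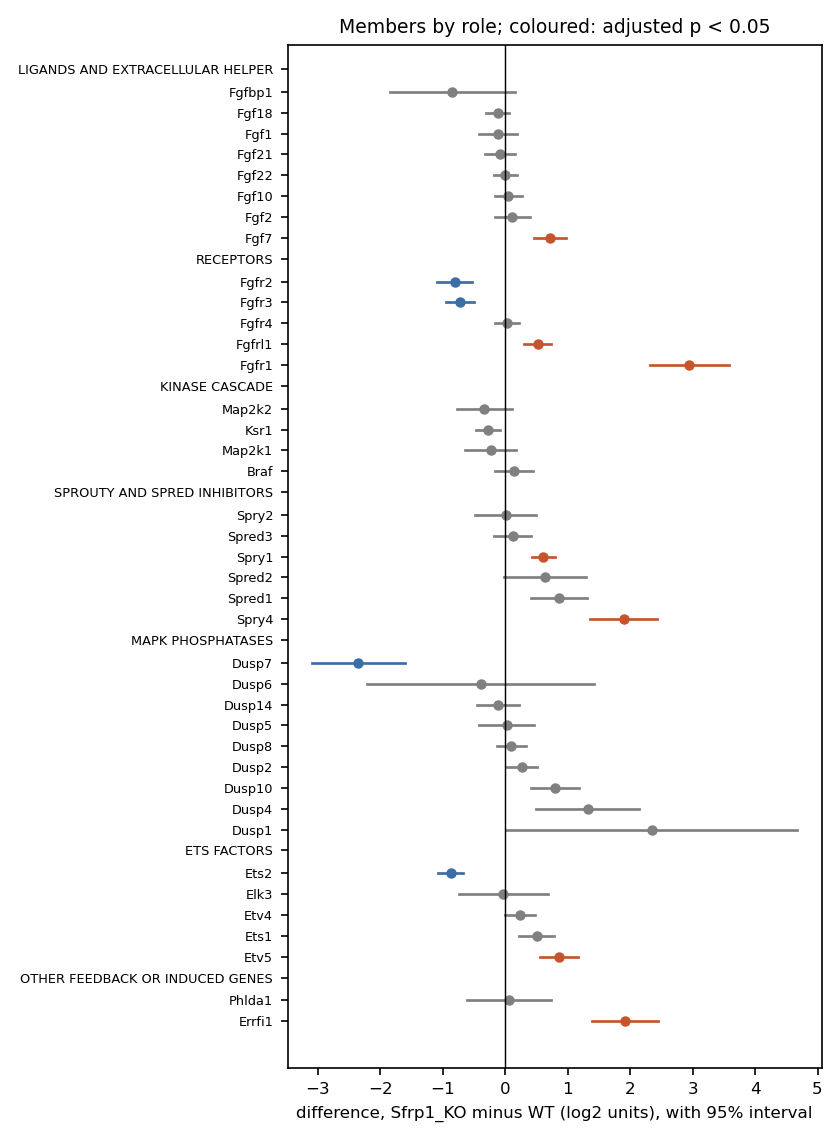
Differences of the 39 genes by role, Sfrp1_KO minus WT in log2 units on the horizontal axis, with 95% intervals from the limma fit as bars. Coloured points passed the adjusted threshold, 7 to the right of 0 and 4 to the left, and grey points did not pass.

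**Figure D2:**
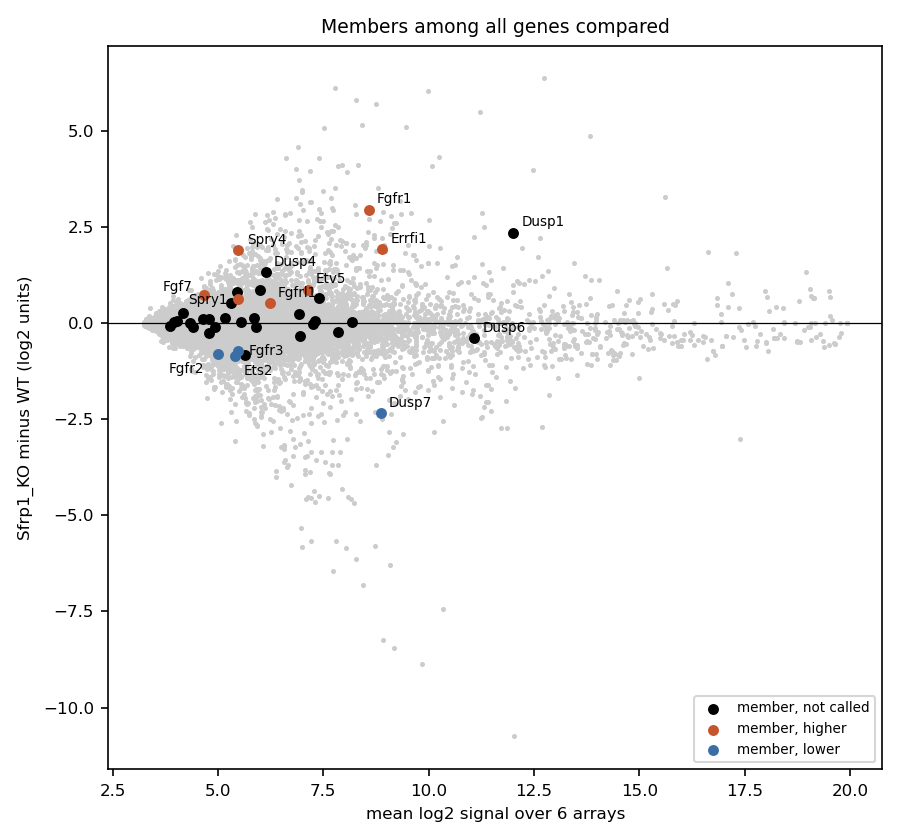
Each grey point is 1 of 30142 genes, placed by its mean log2 signal over 6 arrays (horizontal) and its difference Sfrp1_KO minus WT in log2 units (vertical). The 39 genes of the pathway are drawn larger, with Fgfr1 the highest at 2.95 and Dusp7 the lowest at -2.35.

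Among the receptors Fgfr1 and Fgfrl1 rose, Fgfr2 and Fgfr3 fell, and 4 of the 5 receptor genes were called in all. Over all genes 3.28% were called, and 8.25% of those above background on at least 3 arrays. Of the 4 receptor calls, only that of Fgfr1 held whichever array was left out. Fgfr1 stood at 6.76, 7.18 and 7.37 in WT and at 10.18, 10.43 and 9.54 in Sfrp1_KO. The lowest Sfrp1_KO array was thus well above the highest WT array, and the difference of 2.95 (SE 0.26, 95% CI 2.32 to 3.58, adjusted p = 0.00478) was the largest among the 39 genes. Leaving out each array in turn gave differences of 2.76 to 3.20, with adjusted p of 0.00488 to 0.0268.

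Fgfr2, whose epithelial splice form is the keratinocyte receptor for FGF7 and FGF10, stood at 5.59, 5.45 and 5.21 in WT and at 4.66, 4.53 and 4.63 in Sfrp1_KO. All WT arrays were above background and all Sfrp1_KO arrays were under it, so that Fgfr2 fell by at least 0.35 (unbounded difference -0.81, SE 0.12, adjusted p = 0.02). Its call ended without WT replicate 2 (adjusted p = 0.0623) and without Sfrp1_KO replicate 1 (0.0778), 2 (0.099) or 3 (0.0614). Fgfr3, which is expressed in interfollicular keratinocytes, stood at 5.78, 5.77 and 5.95 in WT and at 5.11, 5.01 and 5.21 in Sfrp1_KO. The genotypes did not overlap, the Sfrp1_KO arrays lay around background, and Fgfr3 fell by 0.72 (SE 0.09, adjusted p = 0.0145). Its call ended without Sfrp1_KO replicate 1 (0.0697) or 2 (0.0734). Of 8 basal keratinocyte markers 6 were called lower in the same arrays as Fgfr2 and Fgfr3, where 1.45% of all genes were. In the same arrays as Fgfr1, 2 of 7 fibroblast markers were called higher, where 1.83% of all genes were. The levels of these markers are given above, and their part in these differences was not tested.

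Fgfrl1 encodes a receptor that binds FGFs but lacks the kinase domain. It stood at 5.998, 5.895 and 5.999 in WT and at 6.62, 6.38 and 6.45 in Sfrp1_KO, so that all Sfrp1_KO arrays were higher. It rose by 0.52 (SE 0.09, adjusted p = 0.0376), and this call ended without any 1 of the 6 arrays (adjusted p = 0.0787 to 0.131). Fgfr4 was under background on all arrays, at 3.95 ± 0.07 in WT and 3.98 ± 0.06 in Sfrp1_KO (SD, n = 3; adjusted p = 0.955).

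**Figure D3:**
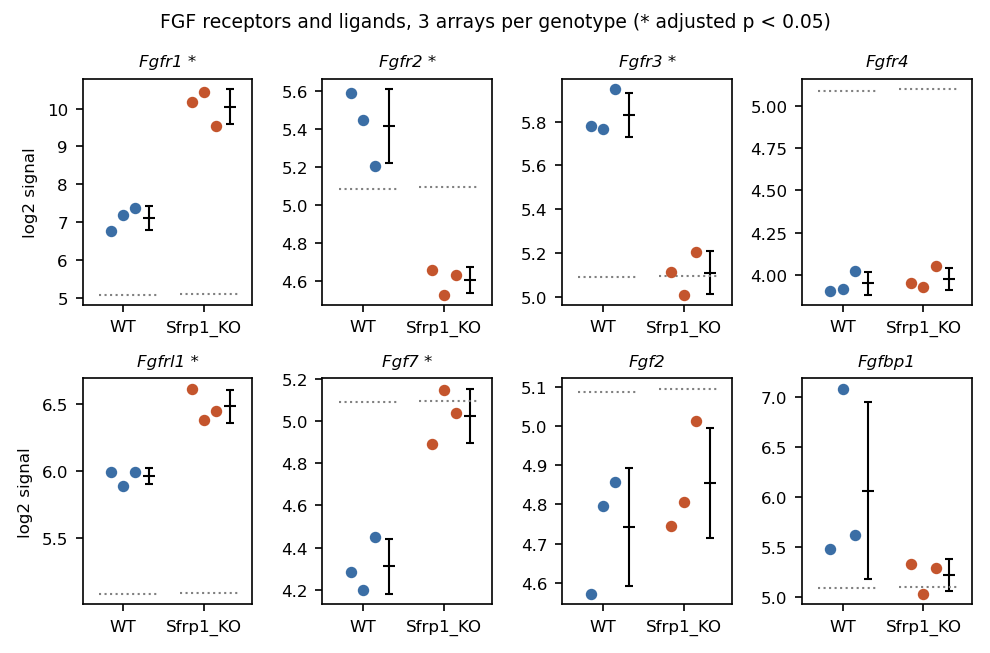
Log2 signal (vertical axis, its own scale in each panel) of 5 receptor genes, 2 ligands and Fgfbp1 on the 3 WT arrays (blue) and 3 Sfrp1_KO arrays (orange). Black bars are the mean ± SD, and dotted lines are the highest background level among the arrays of the genotype; Fgfr1 lies at 9.54 or more in Sfrp1_KO and at 7.37 or less in WT.

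Promoters of a receptor that fell and of one that rose are shown as RefSeq sequence of build GRCm38.p6, 5′ to 3′, as the 250 bases before the annotated start of the gene. Promoters of 32 of the 39 genes were matched, 36 sequences in all, and Fgfr1, Spry4, Fgf1, Dusp4, Etv4, Ets1 and Phlda1 had none in the table used. On both strands 3 motifs were searched for and are in capitals where found: an ETS site (CCGGAAGT), an AP-1 site (TGANTCA) and a cyclic AMP response element, CRE (TGACGTCA). The motifs do not overlap in the sequences shown. The ETS letters stood in 2.88% of all 32851 promoters of this length and in 1 of the 36, that of Fgfrl1, at position -48 from the start. The AP-1 letters stood in 6.75% of all promoters and in 1 of the 36, that of Ksr1. The Fgfr2 stretch (minus strand of chr7:130266809-130267058) held none of the 3, which says only that these letters are not in this window. The Fgfrl1 stretch is on the plus strand of chr5:108693979-108694228.
Fgfr2: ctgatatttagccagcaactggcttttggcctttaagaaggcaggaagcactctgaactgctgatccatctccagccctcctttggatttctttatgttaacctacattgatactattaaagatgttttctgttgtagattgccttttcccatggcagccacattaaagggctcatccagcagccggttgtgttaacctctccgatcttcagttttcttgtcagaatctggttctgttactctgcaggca
Fgfrl1: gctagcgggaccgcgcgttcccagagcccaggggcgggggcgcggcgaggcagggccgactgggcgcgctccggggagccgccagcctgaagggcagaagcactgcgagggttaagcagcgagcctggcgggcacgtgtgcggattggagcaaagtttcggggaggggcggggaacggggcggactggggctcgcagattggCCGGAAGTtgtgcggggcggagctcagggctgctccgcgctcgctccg

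Among the ligands, Fgf7 was called and the other 6 were not. Fgf7, the keratinocyte growth factor made by fibroblasts, stood at 4.28, 4.20 and 4.45 in WT and at 4.89, 5.15 and 5.04 in Sfrp1_KO. All WT arrays were under background, and of the Sfrp1_KO arrays only replicate 2 was above it. The rise was therefore at least 0.06 (unbounded difference 0.71, SE 0.11, adjusted p = 0.0225), and its call held only without WT replicate 3 among the arrays left out (adjusted p = 0.0397; 0.0577 to 0.102 without any other). Fgf10, which shares the FGFR2 receptor with Fgf7, was under background throughout, at 4.01 ± 0.09 in WT and 4.06 ± 0.08 in Sfrp1_KO (SD, n = 3). Fgf18, Fgf21 and Fgf22 were also under background on all arrays. Fgf1 (4.98 ± 0.21 and 4.88 ± 0.10) and Fgf2 (4.74 ± 0.15 and 4.85 ± 0.14), both of them ligands without a classical signal peptide, lay near background, with adjusted p of 0.835 and 0.797.

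Fgfbp1, whose product releases FGFs from the matrix and is made by keratinocytes, stood at 5.48, 7.08 and 5.62 in WT and at 5.32, 5.03 and 5.29 in Sfrp1_KO. All Sfrp1_KO arrays were lower, but WT replicate 2 stood apart from the other WT arrays, and the difference of -0.85 (SE 0.42) was not called (adjusted p = 0.446). Without WT replicate 2 the difference was -0.34.

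None of the 4 measured genes of the kinase cascade was called. Map2k1, which encodes the kinase MEK1, was at 7.96 ± 0.31 in WT and 7.73 ± 0.16 in Sfrp1_KO (SD, n = 3; interval of the difference -0.64 to 0.18). Map2k2, which encodes MEK2, stood at 7.50, 6.97 and 6.90 in WT and at 6.89, 6.88 and 6.60 in Sfrp1_KO. Its Sfrp1_KO arrays were all lower, by a narrow margin, and the difference of -0.33 (SE 0.18, 95% CI -0.77 to 0.10) was not called (adjusted p = 0.512). Braf, the RAF kinase, was at 5.79 ± 0.09 and 5.93 ± 0.21 (interval of the difference -0.16 to 0.44). Ksr1, a scaffold that holds RAF and MEK together, stood at 4.914, 4.836 and 4.9998 in WT and at 4.62, 4.67 and 4.66 in Sfrp1_KO. Its arrays did not overlap, but 5 of the 6 were at or under background, and the difference of -0.27 (SE 0.08) did not pass (adjusted p = 0.166).

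The Sprouty and Spred genes, whose products restrain the path from receptors to ERK, included 2 called genes of 6, Spry1 and Spry4, both higher. Over all genes 1.83% were called higher. The differences of all 6 Sprouty and Spred genes were positive, with a median of 0.62, where 13807 of all 30142 genes had a positive difference. Those of Spry2 and Spred3 were only 0.01 and 0.12. Spry3, from the list of other pathway genes, was under background on all arrays, at 4.33 ± 0.07 in WT and 4.12 ± 0.03 in Sfrp1_KO (SD, n = 3; difference -0.21, adjusted p = 0.275), with all Sfrp1_KO arrays lower; it was picked out after its values were seen. Spry4 stood at 4.17, 4.39 and 5.05 in WT, where only replicate 3 was above background, and at 6.53, 6.43 and 6.35 in Sfrp1_KO. All Sfrp1_KO arrays were above all WT arrays, and Spry4 rose by 1.90 (SE 0.22, 95% CI 1.36 to 2.44, adjusted p = 0.0105). Spry1 stood at 5.18, 5.17 and 5.16 in WT and at 5.74, 5.74 and 5.87 in Sfrp1_KO. The WT arrays lay within 0.03 of each other, just over background, and Spry1 rose by 0.61 (SE 0.08, adjusted p = 0.0131). Both calls ended without Sfrp1_KO replicate 1 (adjusted p = 0.0584 for Spry1 and 0.0533 for Spry4) or replicate 2 (0.0628 and 0.0623).

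Spry2, another Sprouty gene, was far above background on all arrays and was not called, with 8.65, 7.90 and 7.96 in WT and 8.24, 8.18 and 8.13 in Sfrp1_KO (difference 0.01, 95% CI -0.47 to 0.50, adjusted p = 0.994). Its difference was -0.12 without WT replicate 2 and 0.25 without WT replicate 1, the highest of the 6 arrays. Spred1 stood at 5.44, 5.74 and 5.54 in WT and at 6.06, 6.74 and 6.52 in Sfrp1_KO. The arrays did not overlap, and the difference of 0.87 (SE 0.19) did not pass (adjusted p = 0.0703). It passed without Sfrp1_KO replicate 1 (1.06, adjusted p = 0.0414) and with dim genes left out (adjusted p = 0.0471). Spred2 stood at 6.91, 7.70 and 6.61 in WT and at 7.72, 7.84 and 7.57 in Sfrp1_KO. WT replicate 2 lay within the Sfrp1_KO range, and Spred2 passed only without that array (0.95, adjusted p = 0.0385; with all arrays 0.64, adjusted p = 0.363). Spred3 was around background in both genotypes, at 5.10 ± 0.18 and 5.22 ± 0.14.

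Errfi1 encodes a feedback inhibitor of the EGF receptor family that is induced by MAPK activity. It stood at 8.10, 7.86 and 7.83 in WT and at 9.98, 10.20 and 9.37 in Sfrp1_KO. Every Sfrp1_KO array exceeded every WT array, and Errfi1 rose by 1.92 (SE 0.22, 95% CI 1.40 to 2.45, adjusted p = 0.00985). Phlda1, a pleckstrin homology domain gene that also responds to ERK activity, was not called, with 7.94, 6.88 and 6.97 in WT and 7.41, 7.35 and 7.22 in Sfrp1_KO. WT replicate 1 was the highest of the 6 and the other WT arrays the lowest, and the difference was 0.06 (95% CI -0.61 to 0.73, adjusted p = 0.977).

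Of the 9 MAPK phosphatase genes 1 was called, Dusp7, where 3.28% of all genes were called. Dusp1, Dusp4, Dusp10 and Dusp2, none of them called, had all Sfrp1_KO arrays above all WT arrays, as did 9.1% of all genes. Dusp2 had all 6 arrays under background. Dusp7, which encodes a cytoplasmic phosphatase of ERK, stood at 10.03, 9.54 and 10.54 in WT and at 8.12, 7.67 and 7.27 in Sfrp1_KO. The genotypes were far apart, and Dusp7 fell by 2.35 (SE 0.31, 95% CI -3.09 to -1.61, adjusted p = 0.015), a call that ended without Sfrp1_KO replicate 2 (adjusted p = 0.0794). Dusp6, the other cytoplasmic ERK phosphatase on the list and a widely used readout of FGF signalling, stood at 12.90, 11.14 and 9.77 in WT and at 11.21, 11.16 and 10.26 in Sfrp1_KO. The WT arrays spanned 3.13 log2 units and enclosed all Sfrp1_KO arrays, so that the difference of -0.39 had an interval of -2.21 to 1.43 (adjusted p = 0.923). Its sign depended on the arrays, with -1.14 to 0.42 as each was left out in turn, and was 0.12 with array weights.

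Dusp1, an immediate-early phosphatase of p38 and JNK, stood at 12.29, 8.61 and 11.63 in WT and at 13.15, 14.02 and 12.38 in Sfrp1_KO. All Sfrp1_KO arrays were higher, but WT replicate 2 was 3 log2 units or more below the other WT arrays, and the difference of 2.34 (SE 0.97, 95% CI 0.01 to 4.68) was not called (adjusted p = 0.345). Without WT replicate 2 the difference was 1.23. Dusp4, a nuclear phosphatase induced by ERK, stood at 5.23, 5.92 and 5.26 in WT and at 7.20, 7.11 and 6.07 in Sfrp1_KO. The genotypes did not overlap, and Dusp4 was called only without Sfrp1_KO replicate 3, its lowest knockout array (1.68, adjusted p = 0.035; with all arrays 1.32, adjusted p = 0.12). Dusp10, a phosphatase of JNK and p38, stood at 5.26, 5.01 and 4.87 in WT and at 5.998, 5.958 and 5.560 in Sfrp1_KO. It narrowly missed the threshold (0.79, SE 0.16, adjusted p = 0.0557), and was called without Sfrp1_KO replicate 3 (0.93, adjusted p = 0.0412), when the arrays were quantile normalized again (0.84, adjusted p = 0.0294), with array weights (0.92, adjusted p = 0.0194), with trend and robust options (adjusted p = 0.0418) and with dim genes left out (adjusted p = 0.0394). The remaining phosphatases were not called. Dusp5, a nuclear ERK phosphatase, was at 5.52 ± 0.33 and 5.55 ± 0.19 (SD, n = 3), and Dusp14 at 5.95 ± 0.25 and 5.84 ± 0.11, while Dusp8, like Dusp2, was under background on all arrays.

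**Figure D4:**
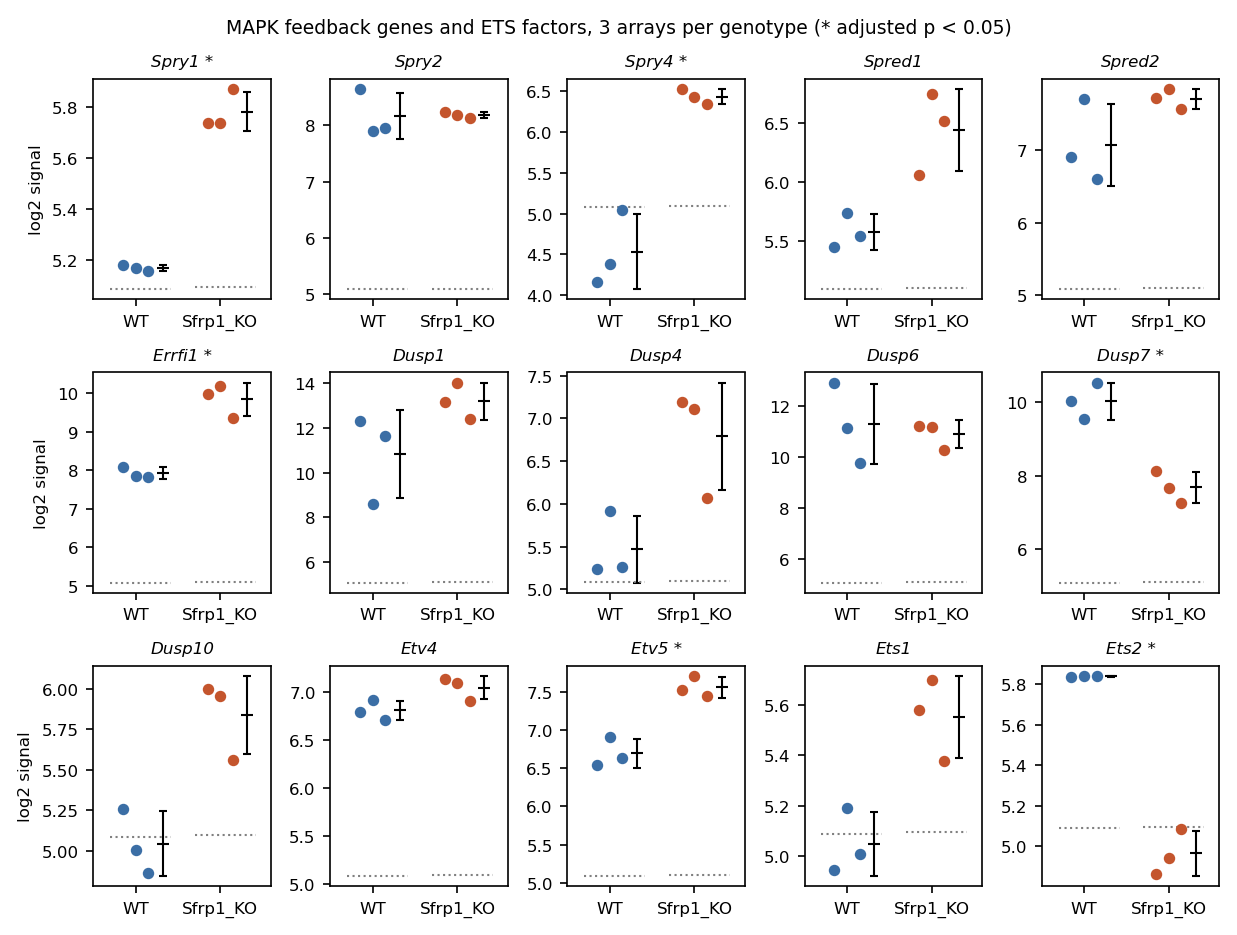
Log2 signal (vertical axis, its own scale in each panel) of 15 feedback genes and ETS factors on the 3 WT arrays (blue) and 3 Sfrp1_KO arrays (orange), with the mean ± SD as black bars and the highest background level of each genotype as dotted lines. Spry1, Spry4, Errfi1 and Etv5 are higher in all Sfrp1_KO arrays and Dusp7 and Ets2 lower, while the WT arrays of Dusp1 and Dusp6 span 3.68 and 3.13 log2 units.

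The CRE letters stood in the promoters of 4 of the 32 matched genes, Braf, Dusp1, Dusp8 and Errfi1, and in 4 of 36 sequences, against 1.55% of all 32851 promoters. Of these genes Errfi1 was called and the other 3 were not. The promoter of Errfi1 is shown as that of the called gene with a CRE, that of Dusp1 as an example from a gene not called, and that of Spry1, which was called and held none of the 3 motifs, for comparison. The CRE, in capitals, begins at position -51 in Errfi1 (plus strand, chr4:150854820-150855069, the later of 2 annotated starts) and at -143 in Dusp1 (minus strand, chr17:26508473-26508722). The Spry1 stretch is on the plus strand of chr3:37639697-37639946.
Errfi1: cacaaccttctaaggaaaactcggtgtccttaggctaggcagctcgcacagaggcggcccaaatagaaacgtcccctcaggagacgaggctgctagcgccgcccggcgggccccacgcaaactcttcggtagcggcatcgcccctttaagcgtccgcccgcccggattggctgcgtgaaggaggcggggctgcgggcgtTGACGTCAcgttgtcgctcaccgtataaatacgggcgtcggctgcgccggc
Dusp1: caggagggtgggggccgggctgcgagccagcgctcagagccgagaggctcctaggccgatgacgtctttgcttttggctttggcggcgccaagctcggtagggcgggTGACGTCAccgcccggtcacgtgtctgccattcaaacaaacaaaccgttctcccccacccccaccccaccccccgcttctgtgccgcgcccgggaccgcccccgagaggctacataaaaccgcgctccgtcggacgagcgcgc
Spry1: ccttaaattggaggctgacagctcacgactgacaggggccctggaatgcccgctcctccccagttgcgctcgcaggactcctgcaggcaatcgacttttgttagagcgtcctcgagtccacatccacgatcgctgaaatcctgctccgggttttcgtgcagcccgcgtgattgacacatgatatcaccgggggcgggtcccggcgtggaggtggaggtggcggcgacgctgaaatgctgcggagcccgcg

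Of the 5 ETS factors measured, Etv5 was called higher and Ets2 lower. Etv5, a target and mediator of FGF signalling, stood at 6.55, 6.91 and 6.63 in WT and at 7.53, 7.71 and 7.44 in Sfrp1_KO. All Sfrp1_KO arrays were higher, and Etv5 rose by 0.86 (SE 0.13, adjusted p = 0.0205). Its call ended without WT replicate 1 (adjusted p = 0.051) or 3 (0.0718) and without Sfrp1_KO replicate 1 (0.0823) or 2 (0.0913). Its relative Etv4 stood at 6.79, 6.91 and 6.71 in WT and at 7.13, 7.09 and 6.90 in Sfrp1_KO. The lowest Sfrp1_KO array lay within the WT range, and the difference of 0.24 (SE 0.10) did not pass (adjusted p = 0.355).

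Ets2, a factor that ERK phosphorylates and activates, stood at 5.83, 5.84 and 5.84 in WT and at 4.86, 4.94 and 5.08 in Sfrp1_KO. The WT arrays were nearly identical, only Sfrp1_KO replicate 3 was above background among the knockout arrays, and Ets2 fell by 0.87 (SE 0.08, 95% CI -1.08 to -0.67, adjusted p = 0.00618). Ets1, its closest relative, had a difference of the opposite sign. It stood at 4.94, 5.19 and 5.01 in WT and at 5.58, 5.70 and 5.38 in Sfrp1_KO, without overlap, and did not pass (0.51, SE 0.12, adjusted p = 0.0861) except with array weights (0.52, adjusted p = 0.0481). Elk3, a partner of serum response factor, was at 7.27 ± 0.38 and 7.25 ± 0.51 (SD, n = 3; difference -0.03, 95% CI -0.74 to 0.69).

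The genes differed among themselves in how much the samples of a genotype spread. The range over 3 arrays was above 1 log2 unit for 6 genes in WT, Fgfbp1, Spred2, Dusp1, Dusp6, Dusp7 and Phlda1, and for 2 in Sfrp1_KO, Dusp1 and Dusp4. Over all 30142 genes these counts were 1673 and 801, of which 1458 and 729 were among the 11010 genes above background on at least 3 arrays. The median range was 0.34 in WT and 0.27 in Sfrp1_KO, against 0.27 and 0.22 over all genes and 0.39 and 0.30 over the 11010 genes above background on at least 3 arrays. The WT range was the wider one for 22 of the 39 genes, 56.4%, and for 57.9% of all genes. The widest WT ranges were those of Dusp1 and Dusp6, and the narrowest those of Ets2 and Spry1, which were called. Spread within a genotype enters the SE, so a narrow range favours a call by construction.

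Other genes of the pathway were read from a list of 75 that holds further FGFs, adaptors, Ras regulators, kinases, phosphatases and ETS factors, of which 65 were measured. Of these 1 was called higher and 1 lower, 3.08% against 3.28% of all genes, and their median difference was -0.01. Gab2, an adaptor that couples receptors to Ras and PI3 kinase, stood at 4.49, 4.69 and 4.69 in WT, under background on all arrays, and at 5.33, 5.30 and 5.33 in Sfrp1_KO. It rose by at least 0.36 (unbounded difference 0.69, SE 0.09, adjusted p = 0.0129). Flrt3, a membrane protein that associates with FGF receptors, stood at 5.56, 5.22 and 5.76 in WT and at 4.35, 4.09 and 4.33 in Sfrp1_KO, where all arrays were under background. It fell by at least 0.45 (unbounded difference -1.26, SE 0.16, adjusted p = 0.0126). Neither was called without Sfrp1_KO replicate 1 or 2. The smallest p-values among the genes not called belonged to Pebp1, an inhibitor of RAF kinases (5.98 ± 0.05 in WT and 6.78 ± 0.31 in Sfrp1_KO, adjusted p = 0.0539), and the phosphatases Dusp16 (5.06 ± 0.02 and 5.44 ± 0.10, adjusted p = 0.0688), Dusp22 (5.88 ± 0.04 and 5.44 ± 0.15, adjusted p = 0.0813) and Dusp3 (5.36 ± 0.12 and 4.96 ± 0.07, adjusted p = 0.0942). The arrays of the genotypes did not overlap for any of these 4, but they were picked by small p, which favours such separation. Of the 65 measured genes 18 did not overlap, 27.7%, against 19.9% of all genes. Among the 11010 genes above background on at least 3 arrays the share was 32.6%.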

How the data were processed

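The authors deposited log2 signals per transcript cluster. Per the submitters' processing notes they used Expression Console of Affymetrix and RMA, in versions that were not given in the sources used here. Of 65956 transcript clusters, 30604 carry 1 gene symbol in the platform annotation, brought up to date by gene identifier, and the brightest feature of a gene was used. The listed genes had 1 feature each. WT and Sfrp1_KO, 3 arrays each, were tested with lmFit and eBayes of limma 3.58.1 (R 4.3.3, two-sided), with Benjamini-Hochberg adjustment over 30142 genes and no filter on dim ones; the script was tested on simulated data. The number of arrays limits the precision. The genes, lists and tests were chosen with earlier results of these data known. All 39 measured genes are named, and of the other pathway genes the called ones and the 4 with the smallest p among the rest. Alternatives were dim genes left out, a block on replicate number, feature means, quantile normalization, centring, array weights, trend and robust options, a minimum difference of 0.5, all clusters, and each array left out.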

Additional observations from a re-analysis of the deposited data

How the results depend on the processing

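Each of the 11 calls kept its sign under all alternatives that gave a difference. Of the genes not called, Fgf22, Fgfr4, Spry2, Dusp5, Dusp6, Dusp14, Elk3 and Phlda1 took the opposite sign in at least 1 alternative. With all arrays in the fit, the calls among the 39 genes were 7 higher and 4 lower, or within 1.5 times of that, in dim-gene filtering, feature means, quantile normalization, centring, array weights, trend and robust options and all transcript clusters. The genes called were not always the same. Fgfrl1 was not called with trend and robust options (adjusted p = 0.0821) or with all transcript clusters (0.0773), and Fgf7 was removed by dim-gene filtering. Dusp10 was added by dim-gene filtering, quantile normalization, array weights and trend and robust options. Spred1 was added by dim-gene filtering, and Ets1 by array weights. A minimum difference of 0.5 log2 units left 3 higher (Errfi1, Fgfr1 and Spry4) and 0 lower, and over all genes 142 higher and 93 lower, with 0 and 0 of the other pathway genes; it tests a stricter hypothesis. Leaving out each array in turn gave 2 to 7 higher and 1 to 4 lower among the 39, 191 to 487 higher and 100 to 407 lower over all genes, and 0 to 2 higher and 0 to 1 lower among the other pathway genes. The median difference of the 39 then ran from 0.051 to 0.217. Over all genes quantile normalization gave 892 higher, against 552. Among the other pathway genes the higher calls were 2 with dim genes left out, 4 after quantile normalization and 2 with array weights, against 1; the cause was not tested.

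Whether same-numbered samples were paired is not given in the labels. Deviations of same-numbered arrays correlated across genes at 0.18, -0.12 and 0.17, and those of other pairs at -0.33 to 0.25. With 3 arrays per genotype these values cannot decide whether there was a pairing. With the replicate number as a block, 5 of the 39 genes were called higher and 2 lower (Dusp10 was added, and Fgf7, Fgfr2, Fgfrl1, Spry1 and Dusp7 were not called), with 297 higher and 238 lower over all genes and 0 higher and 1 lower among the other pathway genes. Not every array correlated best with its own number. Signal over background limits Fgf7, which is under background in WT and near it in Sfrp1_KO. It also limits Fgfr2, Fgfr3, Spry1, Spry4 and Ets2, which are under or near background in 1 genotype. The differences of Spry4 and Ets2 are given unbounded because 1 array of the dimmer genotype was above background.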
